A study of Mus musculus with 12 samples.

Results

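Hepatocytes take up bile salts and other organic anions from sinusoidal blood, secrete them across the canalicular membrane into bile and can return them to blood across the basolateral membrane. The 10 transporter genes described here were chosen by name for these roles and are 10 of the 24537 genes in the deposited liver RNA-Seq table. They comprise 5 carriers for uptake across the sinusoidal membrane (Slc10a1, Slco1a1, Slco1a4, Slco1b2 and Slco2b1), 3 pumps of the canalicular membrane (Abcb11, Abcb4 and Abcc2) and 2 pumps for basolateral export (Abcc3 and Abcc4).

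Liver RNA was sequenced from 12 male C57Bl/6J mice, which were housed individually and entered the study at 6 weeks of age. The ad libitum group (Con) had unrestricted access to NIH41 diet, and the caloric restriction group (CR) received a fortified NIH41 diet at a 30% reduction of intake, given daily at noon. Livers were collected at day 25 or day 30 of the intervention, with 3 mice per diet and day. All mice belonged to a study that gave heavy water before collection, and no transgene or deletion is given for either group. Because Con mice ate freely while CR mice received a timed meal of another formula, the amount of food, its timing and its formula cannot be told apart. The replicates are separate mice, and all comparisons refer to the spread between mice.

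Bile acid uptake and export form a circuit that limits the bile acid content of the hepatocyte. Slc10a1 (NTCP) brings in conjugated bile salts together with sodium, and Abcb11 (BSEP) secretes them into bile, where phospholipid delivered by Abcb4 (MDR2) shields the ducts. Members of the Slco family (OATPs) carry a wide range of organic anions, including bile acids, steroid conjugates, thyroid hormones and drugs. Several of these genes respond to nuclear receptors that sense bile acids or foreign compounds, and in the mouse Slco1a1 is higher in male and Slco1a4 in female liver.

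Expression was measured as FPKM, which scales exonic reads by exon length and by library depth, so levels can be roughly compared between genes and between mice. The FPKM of all genes still summed to between 401100 and 453200 per library, and calls between mice moved with further scaling, as given below. Depth, recovered from the steps of low FPKM, was 15748725 to 23345561 reads, of which 78.1% to 84.3% lay on exons. Each library had a median correlation of at least 0.985 with the other libraries of its group across genes. The 7 hepatocyte markers summed to between 37950 and 65630 FPKM, and the 6 cholangiocyte markers to between 7.60 and 17.8 FPKM. The 4 renal tubule markers summed to at most 0.138 FPKM. Hepatocyte markers summed to 54470 to 65630 FPKM in CR mice and 37950 to 46630 FPKM in Con mice at day 30, stellate cell markers (5 genes) to 68.9 to 79.4 and 48.8 to 59.0 FPKM, and endothelial markers (5 genes) to 38.0 to 43.1 and 29.0 to 31.9 FPKM. These groups did not overlap at day 30. At day 25, CR and Con mice stood apart for macrophage markers (6 genes, 23.2 to 31.0 against 35.7 to 59.8 FPKM), pericentral hepatocyte markers (7 genes, 6501 to 7552 against 5071 to 5431 FPKM) and stellate cell markers (64.5 to 65.8 against 51.6 to 60.4 FPKM). The 4 lymphocyte markers stood apart at each day, at 0.466 to 0.922 FPKM in CR and 0.951 to 1.28 FPKM in Con mice at day 25 and at 0.803 to 1.15 and 1.51 to 1.73 FPKM at day 30. The 4 markers of exocrine pancreas, of which 1 to 3 were at 0 throughout a group, overlapped at day 25 and summed to 5.63 to 7.78 FPKM in CR and 8.34 to 9.49 FPKM in Con mice at day 30. Erythrocyte markers (4 genes) overlapped between diets at each day, and periportal hepatocyte markers (6 genes) stood at 3792 to 5359 FPKM in CR and 2925 to 3517 FPKM in Con mice at day 30. The sums follow their most abundant genes, and single markers can go the other way. In the hepatocyte sum at day 30, Alb measured 41050 to 51720 FPKM in CR and 25400 to 33010 FPKM in Con mice. Apoa1 was lower in CR mice, at 4807 to 5524 against 5860 to 6596 FPKM. In the pericentral sum at day 25, Cyp2e1 was higher and Lgr5 lower in CR mice. Nearly all of the pancreas sum was Cela1, and mean Marco, a macrophage marker, was higher in CR mice at day 25. The part of cell composition in the results below was not tested. In whole liver, fewer cells of a type and less RNA per cell cannot be told apart.

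The Slco genes Slco1b2, Slco1a4 and Slco1a1 lie near each other on chromosome 6, with 118.8 kb between Slco1b2 and Slco1a4 and 51.1 kb between Slco1a4 and Slco1a1 in the mm10 coordinates of the table. Slco1a1 (NM_013797, chr6:141907281-141946962) and Slco1a4 (NM_030687, chr6:141805440-141856171) are on the minus strand, and Slco1b2 (NM_020495, chr6:141629518-141686635) is on the plus strand. The canalicular pump gene Abcb11 (NM_021022, chr2:69238282-69342616) is on the minus strand of chromosome 2. The 250 bases before the annotated start are shown for Slco1a1 and Slco1a4, the neighbors that differed in opposite directions between Con and CR mice, and for Abcb11, the canalicular gene that was lower in CR mice at day 25. They were taken from RefSeq (GRCm38.p6), read from 5′ to 3′ on the minus strand, at chr6:141946963-141947212 for Slco1a1, chr6:141856221-141856470 for Slco1a4 and chr2:69342617-69342866 for Abcb11. The RefSeq start of Slco1a4 lies 49 bases upstream of the start in the deposited table. Capitals mark matches to 5 of the 6 motifs searched on both strands, chosen with the results already known. These 5 were AGGTCA (the half-site of many nuclear receptors), TTCNNNGAA (the core bound by STAT factors), TGACNNNGC (the core of the antioxidant response element), TATAAA and CCAAT.
Slco1a1: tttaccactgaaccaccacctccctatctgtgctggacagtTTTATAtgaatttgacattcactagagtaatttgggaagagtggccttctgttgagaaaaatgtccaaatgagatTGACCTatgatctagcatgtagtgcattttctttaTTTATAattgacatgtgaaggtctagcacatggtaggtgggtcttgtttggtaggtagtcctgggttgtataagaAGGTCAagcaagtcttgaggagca
Slco1a4: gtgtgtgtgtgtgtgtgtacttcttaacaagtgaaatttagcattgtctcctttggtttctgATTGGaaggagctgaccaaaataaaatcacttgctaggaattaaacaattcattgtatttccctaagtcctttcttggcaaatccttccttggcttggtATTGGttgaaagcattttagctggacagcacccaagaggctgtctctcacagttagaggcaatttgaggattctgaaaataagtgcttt
Abcb11: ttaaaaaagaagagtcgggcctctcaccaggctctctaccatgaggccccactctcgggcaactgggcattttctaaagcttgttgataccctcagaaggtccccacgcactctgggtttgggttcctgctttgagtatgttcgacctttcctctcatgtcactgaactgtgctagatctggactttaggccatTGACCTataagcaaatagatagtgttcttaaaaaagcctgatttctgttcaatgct

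In the Slco1a1 promoter, AGGTCA or its reverse complement began at positions -134 and -24 relative to the start, and TATAAA or its reverse complement at -209 and -99. The Slco1a4 promoter held CCAAT as its reverse complement at -188 and -89 and no AGGTCA. The Abcb11 promoter held AGGTCA as its reverse complement at -56. The RefSeq table used had an entry for 9 of the 10 genes, all except Abcc3. Among these 9, AGGTCA was found in 5 (Slc10a1, Slco1a1, Slco1b2, Abcb11 and Abcc2), against 14% of 32851 mouse promoters of the same length. CCAAT was found in 3 (33.8% of all promoters), TATAAA in 2 (12.4%), TGACNNNGC in 2 (10.2%) and TTCNNNGAA in 1 (7.02%). Slco1b2 held the last of these at -206, and no match of 1 motif overlapped a match of another. A match of letters describes the window only.

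The most abundant transporter mRNA was Slc10a1, with a mean of 410 ± 46.5 FPKM (SD, n = 12), followed by Slco1b2 (OATP1B2), with 292 ± 48.7 FPKM (SD, n = 12). Slc10a1 exceeded Slco1b2 in 11 of 12 libraries, and both lay above the remaining 8 genes in every library. Abcc2 (MRP2), which exports conjugated bilirubin and glutathione conjugates into bile, had 121 ± 11.1 FPKM and exceeded Abcc3 (MRP3) in 11 of 12 libraries. Below these came Abcc3 at 101 ± 17.7, Abcb11 at 81.5 ± 24.1, Abcb4 at 73.7 ± 12.4, Slco1a4 at 52.9 ± 20.2, Slco1a1 at 43.0 ± 24.0 and Slco2b1 at 40.2 ± 4.66 FPKM (SD, n = 12). Each of these neighbors held its order in 7 to 10 of 12 libraries and their ranges overlapped, so no single order of them held over the 12 mice. These ranges pool diets and days and so also carry differences between groups. At day 30, Slco1a1 was above Slco1a4 in every Con mouse and below it in every CR mouse. Abcc4 (MRP4), a basolateral pump for bile acids and cyclic nucleotides, was far below the others at 0.797 ± 0.172 FPKM (SD, n = 12). It rested on 59 to 135 reads per library.

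**Figure D1:**
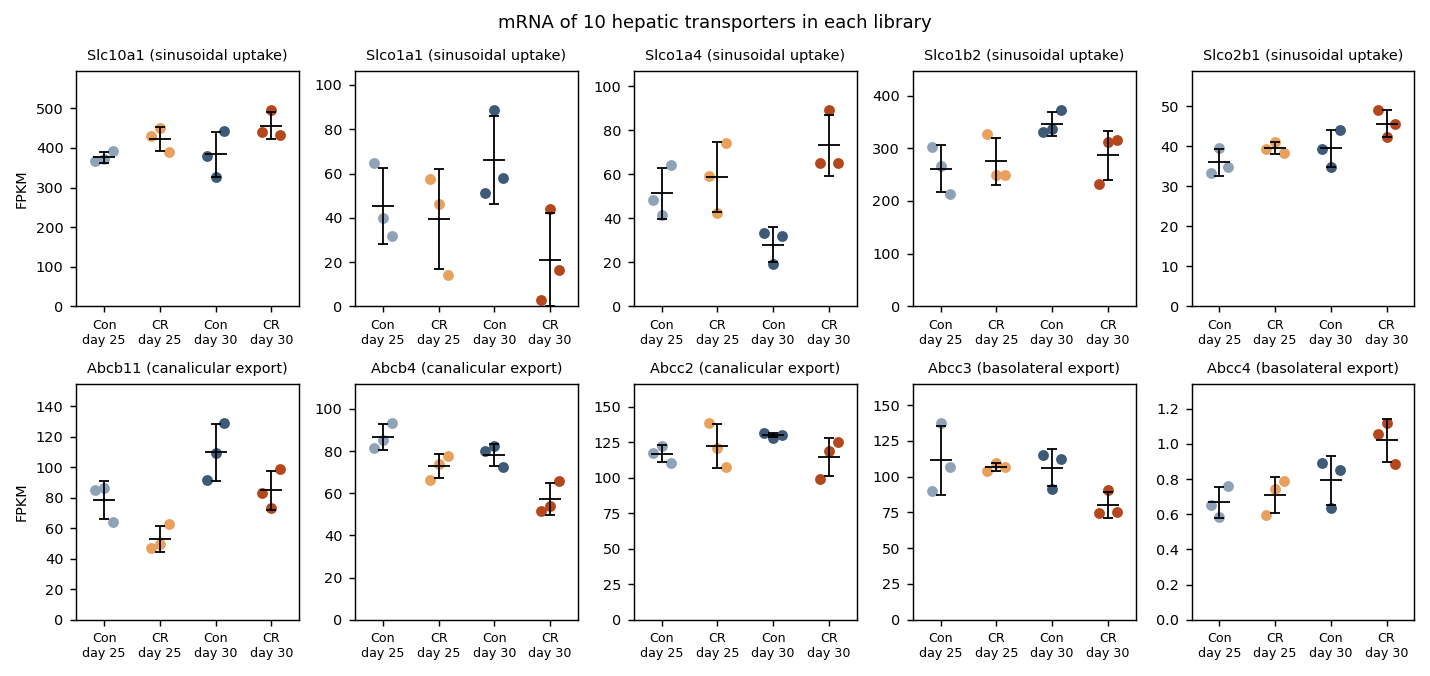
FPKM of each of the 10 transporter genes (vertical axes, starting at 0) in the 4 groups, with 1 point per mouse and black bars for the mean ± SD of 3 mice. Slco1a4 lay between 65.1 and 89.3 FPKM in CR mice at day 30, above the 19.1 to 33.4 FPKM of Con mice, while Slco1a1 spread from 2.95 to 88.7 FPKM over the 12 mice.

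The sinusoidal carriers of the 1a subfamily differed in opposite directions at day 30. Slco1a4 (OATP1A4) was 2.59-fold higher in CR mice, and Slco1a1 (OATP1A1) was lower in CR mice, at 0.223 of the Con level. Slco1a4 measured 65.3, 89.3 and 65.1 FPKM in the 3 CR mice and 33.4, 19.1 and 31.8 FPKM in the 3 Con mice of day 30. Every CR mouse was above every Con mouse. The log2 fold change was 1.38 (SE 0.25, adjusted p = 0.00336 by limma with Benjamini-Hochberg adjustment over the 10593 genes tested). All fold changes here are on the log2(FPKM + 1) scale. Genes were tested if they reached an FPKM of 1 in 3 or more libraries, and an adjusted p under 0.1 counted as passing.

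At day 25, Slco1a4 measured 59.4, 42.7 and 74.4 FPKM in CR mice and 48.4, 41.4 and 64.2 FPKM in Con mice. These groups overlapped, and the log2 fold change of 0.18 (95% interval -0.35 to 0.71) was not past the threshold (adjusted p = 0.701, limma). The level of Slco1a4 in Con mice was 51.3 ± 11.7 FPKM at day 25 and 28.1 ± 7.83 FPKM at day 30 (SD, n = 3 each), and in CR mice 58.8 ± 15.9 and 73.2 ± 13.9 FPKM. Con mice of day 30 lay below Con mice of day 25 without overlap, by 0.86 on the log2 scale (log2 fold change -0.86, SE 0.25, unadjusted p = 0.00408 and adjusted p = 0.459, limma). In CR mice the day 30 value was above the day 25 value by 0.33 (SE 0.25, adjusted p = 0.739, limma), with overlap. Con mice of day 30 were the lowest of the 4 groups for this gene.

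Slco1a1 varied most between mice. It measured 2.95, 44.2 and 16.2 FPKM in the CR mice of day 30, and 51.4, 88.7 and 58.0 FPKM in the Con mice. All CR mice were below all Con mice, but the SD of the CR mice (21.0 FPKM) was as large as their mean (21.1 FPKM). The log2 fold change was -2.16 (SE 0.71, adjusted p = 0.0565, limma). Without the CR mouse at 2.95 FPKM it was -1.22 (adjusted p = 0.202, limma), and without the Con mouse at 88.7 or 58.0 FPKM the adjusted p was 0.153 or 0.105 (0.125 without the filter on low values). At day 25, Slco1a1 measured 57.5, 46.4 and 14.2 FPKM in CR mice and 64.5, 39.9 and 31.7 FPKM in Con mice, with overlapping groups (log2 fold change -0.35, 95% interval -1.90 to 1.19, adjusted p = 0.809, limma).

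**Figure D2:**
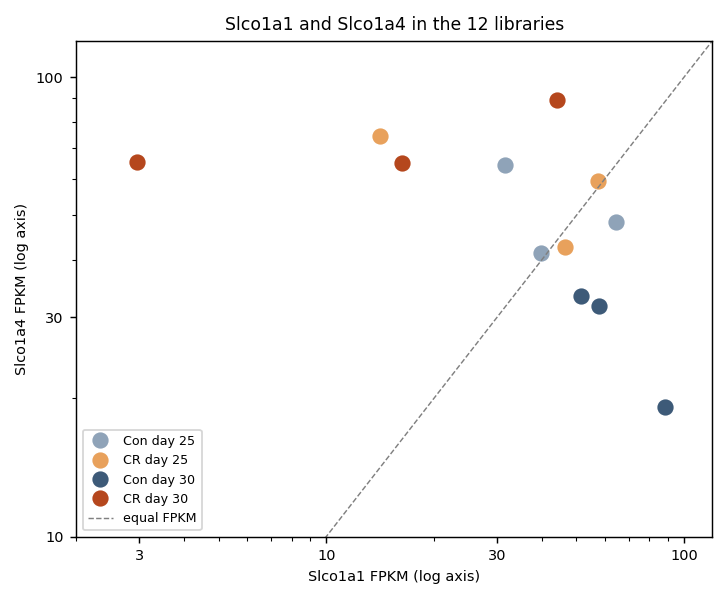
Slco1a4 FPKM (vertical, log axis) against Slco1a1 FPKM (horizontal, log axis), 1 point per mouse, colored by group, with a dashed line at equal FPKM. The 3 Con mice of day 30 lie below the line and the 3 CR mice of day 30 above it, with day 25 mice of both diets between and among them.

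Taking the summed FPKM of Slco1a1 and Slco1a4 as a whole, Slco1a1 contributed 69.2% ± 11.5 in Con mice and 19.1% ± 14.4 in CR mice at day 30 (SD, n = 3 each). The 3 Con values were 60.6%, 82.3% and 64.6%, and the 3 CR values were 4.33%, 33.1% and 20.0%. At day 25 the share was 46.4% ± 12.3 in Con mice and 39.1% ± 20.0 in CR mice, and the groups overlapped. The transcripts share little sequence, with 33 of 3296 windows of 100 bases of Slco1a1 (1.00%) and 41 of 3724 windows of Slco1a4 (1.10%) also found in Slco1a5 or in each other.

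The other uptake carriers differed less. Slc10a1 (NM_001177561, chr12:80953185-80968079), the sodium-dependent bile salt carrier, measured 440, 496 and 434 FPKM in CR mice and 380, 328 and 443 FPKM in Con mice at day 30. At day 25 it measured 430, 450 and 390 FPKM in CR mice and 366, 372 and 393 FPKM in Con mice. Groups overlapped at each day, and neither day passed alone (log2 fold change 0.17, adjusted p = 0.436 at day 25 and 0.26, adjusted p = 0.165 at day 30, limma). Slco2b1 (OATP2B1, NM_175316, chr7:99657804-99711340), a carrier of sulfated steroids, lay at 33.3 to 49.1 FPKM over the 12 mice. Its log2 fold change was 0.14 at day 25 (adjusted p = 0.473) and 0.21 at day 30 (adjusted p = 0.205, limma). Of its 4282 windows of 100 bases, 261 (6.10%) lie opposite the antisense gene Gm15635, and whether the counting used strand is not stated.

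Slco1b2, the mouse counterpart of the human OATP1B carriers, measured 232, 312 and 316 FPKM in CR mice and 330, 336 and 373 FPKM in Con mice at day 30. CR mice were below Con mice without overlap, but the log2 fold change of -0.28 (SE 0.16, 95% interval -0.64 to 0.07) was not past the threshold (adjusted p = 0.254, limma). At day 25 it measured 326, 249 and 249 FPKM in CR mice and 303, 267 and 214 FPKM in Con mice, and the groups overlapped. The 5 uptake genes together summed to 883 ± 97.5 FPKM in CR and 864 ± 76.0 FPKM in Con mice at day 30 (SD, n = 3 each). At day 25 they summed to 836 ± 73.8 and 771 ± 40.1 FPKM. Slc10a1 made up 40.6% to 55.7% of this sum in the 12 mice.

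Of the canalicular pumps, Abcb11 and Abcb4 were lower in CR mice, and Abcc2 did not pass at any day. Abcb11, the bile salt export pump, measured 46.7, 49.4 and 62.8 FPKM in CR mice and 84.7, 86.0 and 63.8 FPKM in Con mice at day 25. All CR mice were below all Con mice, although the highest CR and lowest Con mice were 62.8 and 63.8 FPKM. The log2 fold change was -0.55 (SE 0.17, adjusted p = 0.0636, limma). It did not pass when any of 4 mice was left out (Con replicates 1 and 2 and CR replicates 1 and 2, adjusted p = 0.141 to 0.180, limma), or without the filter on low values (0.112).

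At day 30, Abcb11 measured 83.0, 73.1 and 98.7 FPKM in CR mice and 91.4, 109 and 129 FPKM in Con mice. The groups overlapped, and the log2 fold change of -0.36 (95% interval -0.73 to 0.01) was not past the threshold (adjusted p = 0.165, limma). Both diets were higher at day 30 than at day 25 without overlap. The log2 difference between days was 0.67 in CR mice (unadjusted p = 0.00182, adjusted p = 0.184) and 0.48 in Con mice (unadjusted p = 0.0146, adjusted p = 0.556, limma). Exons of Abcb11 share 39 of 4794 windows (0.814%) with the antisense gene Gm13613.

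Abcb4 (NM_008830, chr5:8893721-8959226), the phospholipid translocator of the canalicular membrane, was lower in CR mice without overlap at both days. It measured 66.5, 74.1 and 77.7 FPKM in CR and 81.3, 85.2 and 93.2 FPKM in Con mice at day 25. At day 30 it measured 51.8, 54.1 and 66.0 FPKM in CR and 80.0, 82.4 and 72.4 FPKM in Con mice. The spread within each group of 3 was 5.25 to 7.62 FPKM (SD), smaller than the mean differences at either day. It passed at day 30 (log2 fold change -0.45, SE 0.11, adjusted p = 0.020, limma) and not at day 25 (-0.25, SE 0.11, adjusted p = 0.201, limma).

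Abcc2 (NM_013806, chr19:43782308-43838218) measured 99.2, 119 and 125 FPKM in CR and 131, 128 and 130 FPKM in Con mice at day 30. CR mice were below Con mice without overlap, by -0.19 on the log2 scale (95% interval -0.44 to 0.07, adjusted p = 0.291, limma). At day 25 the groups overlapped, at 107 to 138 FPKM in CR and 111 to 123 FPKM in Con mice. The 3 canalicular genes together summed to 248 ± 3.72 FPKM in CR and 282 ± 13.2 FPKM in Con mice at day 25, and to 257 ± 29.4 and 318 ± 14.4 FPKM at day 30 (SD, n = 3 each). The CR mice were below the Con mice at each day, at 244 to 252 against 268 to 294 FPKM and at 234 to 290 against 303 to 332 FPKM. FPKM of Slc10a1 per FPKM of Abcb11 was 8.17 ± 1.70 in CR and 4.93 ± 1.06 in Con mice at day 25, and 5.49 ± 1.21 and 3.54 ± 0.585 at day 30 (SD, n = 3 each). These sums and ratios are descriptions and were not tested.

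Of the basolateral pumps, Abcc3 (NM_029600, chr11:94343295-94392976), which exports glucuronides and bile acids to blood, was lower in CR mice at day 30. It measured 74.6, 90.5 and 75.6 FPKM in CR and 115, 91.7 and 112 FPKM in Con mice. The groups did not overlap, although the highest CR and lowest Con mice were 90.5 and 91.7 FPKM. The log2 fold change was -0.40 (SE 0.15, adjusted p = 0.0866, limma). It did not pass under median-ratio scaling (adjusted p = 0.118), without the filter on low values (0.131), or when 1 of 4 mice was left out, either the Con mouse at 115 or at 112 FPKM or the CR mouse at 74.6 or at 75.6 FPKM (adjusted p = 0.182 to 0.237, limma). At day 25 Abcc3 measured 104 to 109 FPKM in CR and 89.8 to 137 FPKM in Con mice, with a log2 fold change of -0.04 (adjusted p = 0.912, limma).

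Abcc4 (NM_001163676, chr14:118482692-118706219) was not tested, because it reached an FPKM of 1 in only 2 libraries and the filter asked for 3. It measured 1.06, 1.12 and 0.885 FPKM in CR and 0.892, 0.634 and 0.851 FPKM in Con mice at day 30, with overlap. At day 25 it lay at 0.595 to 0.791 FPKM in CR and 0.587 to 0.759 FPKM in Con mice. The 2 basolateral genes, nearly all of it Abcc3, summed to 108 ± 2.68 FPKM in CR and 112 ± 24.1 FPKM in Con mice at day 25, and to 81.2 ± 9.0 and 107 ± 12.8 FPKM at day 30 (SD, n = 3 each).

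**Figure D3:**
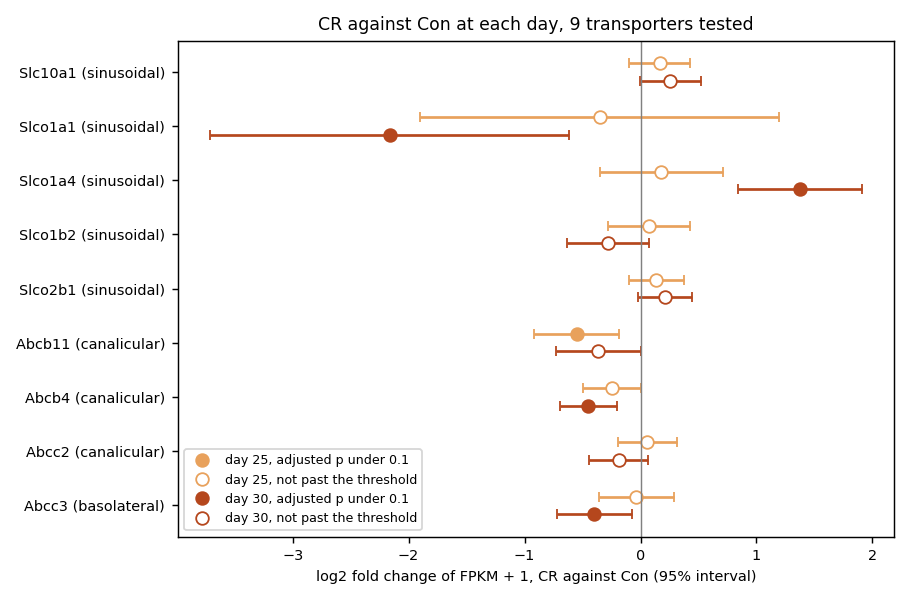
Log2 fold change of FPKM + 1, CR against Con (horizontal axis), of the 9 transporters tested at day 25 and day 30, with 95% intervals from limma and filled points for an adjusted p under 0.1. Abcb11 is filled at day 25, and Slco1a4, Slco1a1, Abcb4 and Abcc3 at day 30, with Slco1a4 alone of these to the right of 0.

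Counted together, 1 of the 9 tested transporters passed at day 25, against 14.9% of all genes tested, and it was lower, as 9.34% of all genes were. At day 30, 4 of 9 passed, against 24.7% of all genes, with 1 higher (8.33% of all genes) and 3 lower (16.4%). Under median-ratio scaling 5 passed at day 30, 3 higher and 2 lower, since Slc10a1 and Slco2b1 entered and Abcc3 left, and the calls of all genes turned from 882 higher and 1737 lower to 1319 and 1238. Without the CR mouse at 2.95 FPKM of Slco1a1 the count was 2. Slco1a4 and Slco1a1 also differed by at least 2-fold, against 2.21% of all genes. Non-overlapping groups were found for 2 of 9 transporters at day 25 (28.2% of all genes) and 6 of 9 at day 30 (36.4% of all genes). The median log2 fold change of the 9 was 0.06 at day 25 and -0.28 at day 30, and that of all genes tested was -0.04 and -0.07.

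To compare the diets over all 12 mice, both days were fitted together with day as a covariate. Then 6 of 9 transporters passed, against 40.6% of all genes tested, with 3 higher (14.5% of all genes) and 3 lower (26.1%). Slco1a4 rose (log2 fold change 0.78, SE 0.23, adjusted p = 0.0236), as did Slc10a1 (0.21, SE 0.08, adjusted p = 0.0671) and Slco2b1 (0.17, SE 0.07, adjusted p = 0.0875, all limma). Abcb4 fell (-0.35, SE 0.08, adjusted p = 0.00648), as did Abcb11 (-0.46, SE 0.12, adjusted p = 0.0112) and Slco1a1 (-1.26, SE 0.55, adjusted p = 0.0960, all limma). All genes that rose were uptake carriers, and 2 of the 3 that fell were canalicular pumps. Abcc3, Slco1b2 and Abcc2 did not pass, at -0.22, -0.10 and -0.07 (adjusted p = 0.156, 0.538 and 0.585, limma). As each mouse was left out, the adjusted p crossed the threshold for Slco1a1 (0.0533 to 0.186), Slc10a1 (0.0391 to 0.141) and Slco2b1 (0.0481 to 0.189, limma), and the count was 3 without the Con mouse of day 30 at 88.7 or at 51.4 FPKM of Slco1a1. Scaling also moved the split, to 1 higher and 4 lower under quantile normalization (Slc10a1 and Slco2b1 left and Abcc3 entered), 2 and 4 under TPM and 3 and 2 under median-ratio scaling (Slco1a1 left). For all genes it was 1536 higher and 2768 lower as deposited, 2040 and 1994 under quantile normalization and 2229 and 1995 under median-ratio scaling. Slco1a4, Abcb4 and Abcb11 passed whichever mouse was left out (adjusted p of at most 0.0514, limma) and under these scalings.

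The CR effect itself was compared between day 30 and day 25. None of the 9 transporters passed this test in limma, against 0.00944% of all genes. At an unadjusted p under 0.05, 1 did, against 3.46% of all genes. This was Slco1a4, with a difference of 1.19 (SE 0.35, unadjusted p = 0.00471 and adjusted p = 0.9995 in the limma model across all genes). Slco1a1 differed by -1.81 (95% interval -4.00 to 0.37, adjusted p = 0.9995, limma). A different response at day 25 and day 30 was thus not shown for any of them. Between days within a diet, none passed in CR mice (0.321% of all genes) or in Con mice (0.0% of all genes) in limma, while 3 had an unadjusted p under 0.05 in each diet, against 8.66% of all genes in CR and 7.22% in Con mice. These were Abcb11, Abcb4 and Abcc3 in CR mice, and Slco1a4, Abcb11 and Slco1b2 in Con mice. The comparisons between diets and between days share their groups, so their values are not independent.

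Genes around the transporters were followed in lists. Of 15 genes of bile acid synthesis and conjugation, 4 were higher and 8 lower in CR mice over both days (median log2 fold change -0.29, against -0.05 for all genes tested). Of all genes tested, 14.5% were higher and 26.1% lower over both days, and the counts of the lists that follow stand beside the same shares. The 4 higher were Cyp39a1 (log2 fold change 1.27, adjusted p = 0.00068), Cyp2c70 (0.57, adjusted p = 0.020), Slc27a5 (0.35, adjusted p = 0.015) and Akr1d1 (0.36, adjusted p = 0.075, all limma). Their number ran from 3 to 5 over the alternative fits. The genes described next were among those lower. Hsd3b7, which modifies the steroid ring of bile acid precursors, was 173 ± 20.3 FPKM in Con and 83.4 ± 12.5 in CR mice at day 25, and 190 ± 18.9 and 61.7 ± 14.5 FPKM at day 30 (log2 fold change over both days -1.34, SE 0.14, adjusted p = 2.8e-05, limma). Acox2, which shortens the side chain, fell by 0.91 on the log2 scale (adjusted p = 1.8e-05), and Baat, which conjugates bile acids to taurine, fell by 0.54 (adjusted p = 0.00044, limma). Cyp7a1, the rate-limiting enzyme of the classic pathway, fell by 0.72 over both days (adjusted p = 0.0359, limma), with 69.8 ± 12.8 FPKM in Con and 46.9 ± 21.0 in CR mice at day 25 and 43.3 ± 17.4 and 24.0 ± 6.36 at day 30 (SD, n = 3 each). Cyp8b1, the enzyme for cholic acid, was singled out after its values were seen. It measured 160 to 361 FPKM in Con and 17.4 to 47.3 FPKM in CR mice at day 30 and fell by 1.92 on the log2 scale over both days (adjusted p = 0.00295, limma).

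Of 22 other transporters of organic ions and lipids, 13 passed the filter on low values, and 6 of these were higher and 1 lower over both days (median 0.17), beside 14.5% and 26.1% of all genes tested. The number higher ran from 4 to 8 and the number lower from 1 to 2 over the alternative fits, and from 4 to 7 and 1 to 2 as each mouse was left out, with 2 lower without replicate 3 of the Con mice or replicate 2 of the CR mice of day 25 or replicate 2 of the CR mice of day 30. Under TPM, 5 were higher and 2 lower. Abcb1a, a drug export pump that resembles Abcb4, rose from 0.549 ± 0.0939 FPKM in Con to 1.97 ± 0.317 in CR mice at day 25 and from 0.987 ± 0.587 to 4.79 ± 0.989 at day 30 (SD, n = 3 each). Its log2 fold change over both days was 1.25 (SE 0.15, adjusted p = 8.6e-05, limma), and 1.25 to 2.20 over the alternative fits. Abcb1a reached the filter on low values through CR mice, since Con mice lay at 0.461 to 0.648 FPKM at day 25 and 0.572 to 1.66 FPKM at day 30. Its p and its place among the 6 are therefore not support for a direction of the list. Abcb4 shares 11 of 3980 windows (0.276%) with Abcb1a, and the 2 genes differed in opposite directions. Abcg5 and Abcg8, the paired canalicular pump for cholesterol, rose by 0.57 (adjusted p = 0.00013) and 0.45 (adjusted p = 0.00026, limma). Abcg5 and Abcg8 thus rose where Abcb11 and Abcb4 fell, while Abcc2 did not pass (-0.07, adjusted p = 0.585, limma). In the same list as Abcg5, Atp8b1 was the gene that was lower (-0.41, adjusted p = 0.0105), and Abcg2 did not pass (-0.22, adjusted p = 0.101, both limma).

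Of 18 regulators and membrane scaffolds, 4 were higher and 3 lower over both days (median -0.09), or 6 and 2 under median-ratio scaling, beside 14.5% and 26.1% of all genes tested. Without replicate 2 of the CR mice of day 30, 5 were lower. Nr1i2 (PXR), a receptor for foreign compounds and bile acids, rose by 0.79 (adjusted p = 7e-05, limma), and Slc9a3r1 (NHERF1), a scaffold of apical membrane proteins, rose by 0.74 (adjusted p = 0.00014, limma). Nr0b2 was also higher (0.76, adjusted p = 0.0046), and Klb (-0.41, adjusted p = 0.0028) and Nfe2l2 (-0.24, adjusted p = 0.0513) were among those lower (all limma). Nr1h4 did not pass (-0.15, adjusted p = 0.236, limma). Of 11 tested targets of xenobiotic receptors, out of 12 listed, 2 were higher and 4 lower over both days (median 0.11), beside the same 14.5% and 26.1%. The numbers ran from 1 to 3 higher and from 3 to 5 lower as each mouse was left out, with 1 higher without replicate 1 of the Con mice of day 25, and 1 was higher with no filter on low values. Por, the electron donor of P450 enzymes, rose by 1.40 (adjusted p = 5.2e-05), while Cyp3a11, the main PXR target of mouse liver, fell by 0.56 (adjusted p = 0.00412) and Srxn1, a target of the antioxidant response, fell by 0.88 (adjusted p = 4.1e-05, limma).

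Slco1a1 and Slco1a4 are known as sex-biased, and other sex-biased liver genes were read beside them. Of 10 genes known as higher in males, 0 were higher and 9 lower in CR mice over both days (median -1.69), where 26.1% of all genes tested were lower. At day 30 all 10 were lower (median -2.86, beside 16.4% of all genes tested) and at day 25, 6 were (median -1.28, beside 9.34%). Ugt2b38, which is among the 9 and the 10 but not the 6, measured at most 0.264 FPKM in CR mice at day 25 and 0.3 FPKM at day 30. It entered these counts only through Con mice, so it is not support for a direction of the list. Cyp7b1 (-1.12 over both days, adjusted p = 0.0169, limma) is in this list and in that of bile acid synthesis. It counts among the lower genes of each, so the 2 lists are not independent. Mup20, a major urinary protein, was 65.4 to 199 FPKM in CR and 1546 to 4203 FPKM in Con mice at day 30. Elovl3, a fatty acid elongase, and Cyp2u1, a P450 enzyme, fell by 2.75 (adjusted p = 0.00042) and 1.61 (adjusted p = 3.2e-05, limma). Of 12 genes known as higher in females, 7 passed the filter on low values and all 7 were higher in CR mice (median 2.01). A gene that is absent from Con mice enters this count only through CR mice, so it is not support for a direction of the list.

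Cyp2b9, a female-biased P450 enzyme, was 0.025 to 0.214 FPKM in Con and 121 to 196 FPKM in CR mice at day 30. Cyp2c40, another P450 enzyme, was 1.15 to 4.34 and 7.98 to 13.2 FPKM in the same mice. The part of sex-biased expression as a whole in the values of Slco1a1 and Slco1a4 was not tested.

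**Figure D4:**
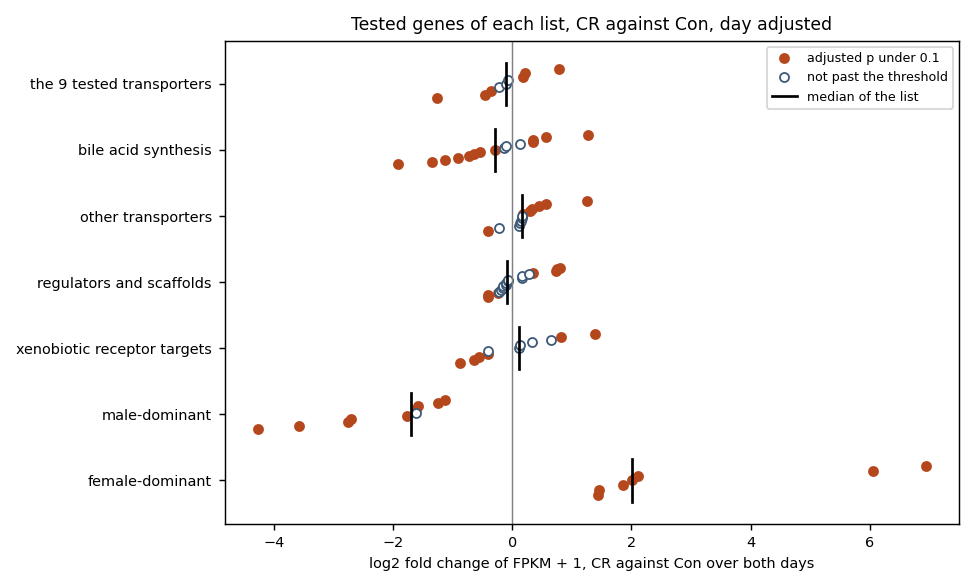
Log2 fold change of FPKM + 1, CR against Con over both days with day as a covariate (horizontal axis), for every tested gene of each list (rows), with filled points for an adjusted p under 0.1 by limma and a black bar at the median of the list. The 9 tested transporters spread from -1.26 to 0.78 on both sides of 0, the genes known as higher in males lie left of 0 and those known as higher in females right of it.

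Genes whose pattern over the 12 libraries was most like that of the largest rise and the largest fall were found by Pearson correlation of log2(FPKM + 1), as a description. For Slco1a4 they were Slc16a5 (r = 0.915), a monocarboxylate transporter family member, Trim24 (r = 0.915), a transcriptional cofactor, and Acot3 (r = 0.903), a peroxisomal thioesterase of the list of female-biased genes. For Slco1a1 they were Tlr5 (r = 0.945), the flagellin receptor, Atrnl1 (r = 0.928) and C8a (r = 0.927), a complement component. Slco1a1 and Slco1a4 themselves had r = -0.556 over the 12 libraries, and Slco1b2, their neighbor, had r = 0.581 with Slco1a1 and -0.465 with Slco1a4. These libraries share diet groups and days, so the coefficients also carry the differences between groups.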

How the data were processed

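Liver RNA of 12 mice was sequenced as paired-end reads of 100 bases on a single lane. According to the methods and the submitters' processing notes, reads were handled with CASAVA 1.8.2 and FastQC and mapped to mm10 with BWA, and DESeq2 was named for differential expression. The authors deposited FPKM values, which per the file headers come from HOMER, counting exonic reads and keeping 1 transcript for each gene. How strand was treated is not given in the sources used here. Because FPKM are not counts, log2(FPKM + 1) was analyzed with limma 3.58.1 in R 4.3.3, with empirical Bayes moderation and a trend, after dropping genes that did not reach 1 FPKM in 3 or more libraries. This filter left 10593 genes and removed Abcc4. A model of the 4 groups gave each comparison, and CR against Con over both days used day as a covariate. Tests are 2-sided, and a gene passed at a Benjamini-Hochberg adjusted p under 0.1. A log2 fold change of at least 1 in size was counted separately. Low FPKM moved in steps of 1 read, which gave whole reads and depth back (100% of 1500 values per library were whole to within 0.1 read), and voom was run on these reads. The fit was also run on simulated data that gave every gene the same relative spread between mice. The outcome is not given here, and the simulation does not bear on genes that vary as much as Slco1a1.

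The 10 transporters and all gene lists, motifs and tests were chosen with earlier results of these data known. All 10 transporters are named, and from each list up to 3 genes with the smallest adjusted p over both days, and Cyp7a1. Further genes of the lists were named after their values were seen. Some genes under this rule and 1 motif are not reported here. Promoters are from RefSeq (GRCm38.p6). Shared sequence was measured as 100-base windows found in transcripts of another gene. Con columns of day 30 were tied to their group as the Con columns that remained, because the descriptions of these samples all carry the same label. They could not be tied to single mice, and every comparison with Con mice of day 30 rests on this assignment.

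Replicate numbers are in the sample titles, but those of the Con mice of day 30 could not be tied to columns. At day 25, deviations from the group mean correlated at 0.368, 0.306 and 0.106 across genes for same-numbered Con and CR mice. For differently numbered mice the correlations were -0.287 to 0.0134. With so few mice per group, deviations from the mean cancel out, so such values cannot settle whether mice were paired. No source says that they share a litter or cage. With the replicate number as a block, Abcb11 passed as before at day 25.

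Alternatives covered the pseudocount, filter, scaling, moderation, groups fitted, threshold, replicate block, voom on recovered reads and leaving out each mouse. Summaries used pandas 2.3.3 and numpy 2.4.6 in Python 3.11.15, and plots matplotlib 3.10.9.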

Additional observations from a re-analysis of the deposited data

How the results depend on the processing

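Slco1a4 and Abcb4 passed at day 30 in every alternative fit (adjusted p of at most 0.0130 and 0.0841, limma). The count of transporters past the threshold at day 25 was 1, and it was 0 at an adjusted p under 0.05, with the 2-fold threshold added and with no filter on low values, and 0 to 1 as each mouse was left out. At day 30 the count of 4 became 2 at an adjusted p under 0.05, 2 with the 2-fold threshold and 2 with no filter, and 2 to 4 as each mouse was left out. Without a filter more genes enter the adjustment, and Abcb11 at day 25 (adjusted p = 0.112), Slco1a1 (0.125) and Abcc3 (0.131) at day 30 no longer passed in limma. Over both days the count of 6 became 3 at an adjusted p under 0.05 and 1 with the 2-fold threshold, and 3 to 6 as each mouse was left out, with 3 without the Con mouse of day 30 at 88.7 or at 51.4 FPKM of Slco1a1. Median-ratio scaling brought Slc10a1 (adjusted p = 0.0641) and Slco2b1 (0.0805) past the threshold at day 30 in limma. The cause was not tested. Quantile normalization removed Slc10a1 (adjusted p = 0.344) and Slco2b1 (0.111) from the calls over both days and added Abcc3 (0.0331, limma). Under TPM the median of all genes at day 30 was -0.11, against -0.07 as deposited.

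The log2 fold changes that changed sign were all of values that had not passed. At day 25, quantile normalization gave -0.0211 for Abcc2 and -0.00915 for Slco1b2, and median-ratio scaling gave 0.0252 for Abcc3. Over both days median-ratio scaling gave 0.00597 for Abcc2. As each mouse was left out, the day 25 values ran from -0.73 to 0.25 for Slco1a1, -0.00352 to 0.39 for Slco1a4, -0.0619 to 0.19 for Slco1b2, -0.0368 to 0.15 for Abcc2 and -0.18 to 0.12 for Abcc3, and the difference of the CR effect between days ran from -0.0149 to 0.20 for Slc10a1 and -0.0119 to 0.16 for Slco2b1. Of the other named genes, 18 were followed in this way, those under the naming rule and Cyp8b1. These 18 kept their direction and call over both days in all 356 recomputed values. Further genes named from the lists are not among them.

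With the replicate number as a block at day 25, the count was 1 (Abcb11, adjusted p = 0.0823, limma), and no call changed. Between the CR mice of day 25 and day 30, same-numbered mice had correlations of -0.38, 0.30 and 0.08, and differently numbered mice of -0.39 to 0.34. Blocked on replicate number, the count of transporters that differed between days in CR mice was 0, as without. No paired analysis was possible at day 30, over both days, within Con mice or between the effects because the Con columns of day 30 carry no replicate number. Depth limits only Abcc4, with 59 to 135 reads.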
